A study of Rattus norvegicus with 9 samples.

Results

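Hypoplastic fetal rat lungs that had received AFSC-EVs (extracellular vesicles released by amniotic fluid stem cells) were compared with hypoplastic lungs that had received none, gene by gene. The comparison used 6 of the 9 libraries of the series, 3 treated and 3 untreated, chosen by their labels and not by any measured value. All genes that passed a filter on low counts were members, which gave 12966 genes of the 17465 in the table, with 4499 set aside. All lungs were from Sprague-Dawley rats. The treated and the untreated hypoplastic lungs shared the hypoplasia, which the series title traces to oligohydramnios (a shortage of amniotic fluid), and only the former carried the AFSC-EV label. A further group of 3 control lungs, labelled neither hypoplastic nor treated, is given beside them for reference. How the vesicles were given, at what dose and when, the age and litters of the fetuses, and any vehicle for the untreated lungs are not stated in the labels. No vehicle-only or other-vesicle group was analysed here, so an effect of the vesicles and one of the procedure cannot be told apart.

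Amniotic fluid and the liquid that the lung epithelium secretes keep the fetal lung distended, and this stretch drives branching of the airways and the maturing of alveolar type I and type II cells. When the fluid is lost the lung stays small, with fewer branches and less mature epithelium. Extracellular vesicles are membrane-bound particles that carry RNA, protein and lipid from the cell that shed them to other cells. Whole-lung RNA is a mixture of epithelium, mesenchyme, vessel, blood and immune cells, and in such bulk samples a lower number of cells of a type and less RNA per cell cannot be told apart.

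The 6 libraries held between 57805241 and 88243188 estimated counts. Ribosomal RNA and 7SL RNA took 14.1% to 18.3% of the counts in the hypoplastic and 15.2% to 16.7% in the treated libraries. The defining genes of the labelled tissue were present: the lung lineage factor Nkx2-1 was at 264 to 441 CPM (counts scaled to library size) in the 6 libraries and the type II cell gene Sftpc at 292 to 758 CPM. Xist and Ddx3y placed libraries 1 and 2 of both hypoplastic groups as female and library 3 as male. Control libraries 1 and 2 were placed as male and control library 3 as female. In a principal component analysis of the 6 libraries, hypoplastic library 2 stood apart on the first component (45.1% of the variance) at 38.2, against -20.5 to 16.1 for the other libraries. The library numbers come from the sample names, and nothing in the labels says that the lungs came from separate litters, so p-values measure the spread among these samples only. CPM is scaled to the library and not to gene length, so levels are compared between libraries of 1 gene and not between genes.

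No gene passed the threshold of an adjusted p under 0.05 in edgeR's quasi-likelihood test over all 12966 genes, a called share of 0%. The smallest adjusted p of edgeR was 0.186, for Spp1. An unadjusted p under 0.05 was reached by 721 genes (5.56%), of which 259 were higher (2%) and 462 lower (3.56%) in treated lungs, where 648 would fall below this p by chance alone. DESeq2, run as an alternative, called 15 genes of 13133 (0.114%), all lower in treated lungs, and 0 higher (0%). The 3 treated libraries lay wholly above the 3 untreated ones in 657 genes (5.07%) and wholly below in 615 (4.74%). When CPM was taken of the plain library total instead, these counts were 782 and 452, so the balance of higher and lower genes moved with the scaling while the median log2 fold change of all genes was -0.01. By sign alone, 6236 genes were higher (48.1%) and 6730 lower (51.9%) in treated lungs.

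**Figure D1:**
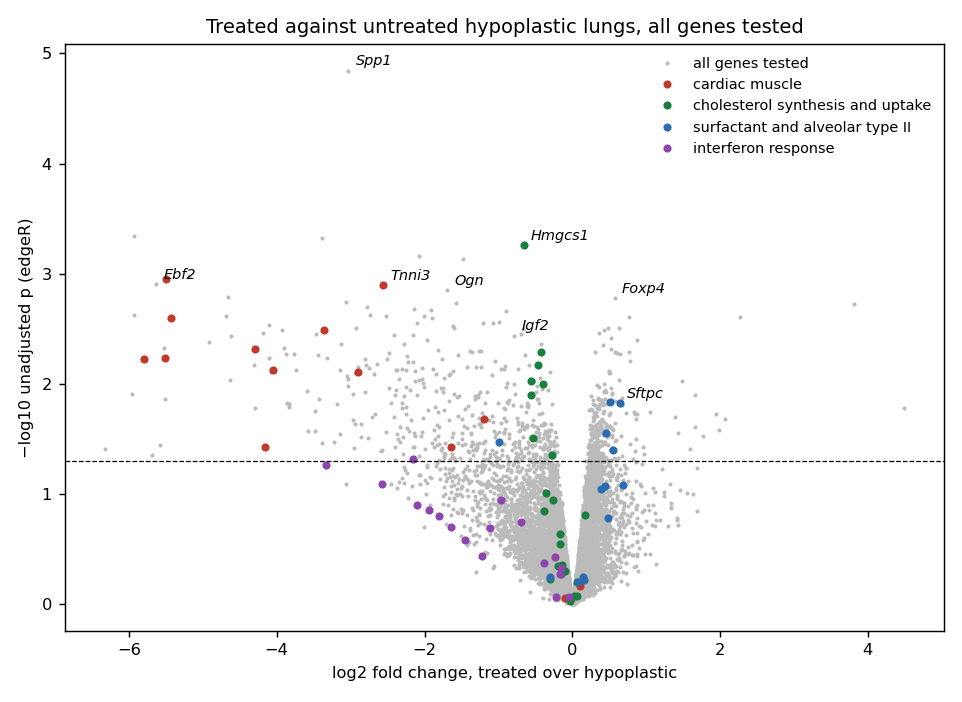
Each point is 1 of the 12966 genes tested, with the log2 fold change of treated over untreated hypoplastic lungs on the x axis and the -log10 of edgeR's unadjusted p on the y axis. The dashed line marks the unadjusted threshold of 0.05 and colours mark 4 gene lists. Spp1 stands highest at a log2 fold change of -3.03, cardiac muscle genes lie far to the left, and cholesterol genes sit mostly left and surfactant genes mostly right of 0 at small folds.

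Spp1 encodes osteopontin, a secreted phosphoprotein that binds integrins and CD44. It was at 63.5, 164 and 89.8 CPM in the untreated hypoplastic lungs, at 11.9, 18.3 and 8.53 CPM in the treated lungs and at 3.57, 2.75 and 3.54 CPM in the control lungs. The 3 untreated values lay above all treated values and the 3 treated values lay above all control values. The log2 fold change of treated over untreated was -3.03 (SE 0.376, n = 3 and 3), an 8.19-fold difference in mean CPM, with an edgeR adjusted p of 0.186 and a DESeq2 adjusted p of 1.64e-14. Leaving out 1 library at a time kept the log2 fold change between -3.37 and -2.56, and edgeR called Spp1 without hypoplastic library 1 and without hypoplastic library 3. Against control, untreated lungs stood 5.01 higher on the log2 scale (edgeR adjusted p = 0.00582) and treated lungs 1.98 higher (edgeR adjusted p = 0.998, DESeq2 adjusted p = 4.74e-05). Both contrasts with the untreated lungs share those 3 libraries, so they are given side by side and not as separate support.

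Of the 9 genes tested on a list of osteopontin and its receptors, 7 had a lower and 2 a higher mean in treated lungs, at a median of -0.12 on the log2 scale beside -0.01 for all genes. With 1 library left out this median was -0.23 (without treated library 2) to -0.098 (without treated library 1). Values of this kind are given for other lists too, since the median turned sign in 16 of 32 lists and turned or moved by over 1.5 times in 29. The integrin subunits of that list moved little. Itgb3 had a log2 fold change of -0.33 (SE 0.265) and Itgb1 one of -0.17 (SE 0.151), with overlapping libraries in both. Itgb6, the epithelial partner of integrin alpha-v, was at 37.1, 44.7 and 40.9 CPM in untreated and 48.5, 48.2 and 47.3 CPM in treated lungs (log2 fold change 0.23, SE 0.190). It was the only receptor on the list whose libraries did not overlap (5.07% of all genes in this direction).

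**Figure D2:**
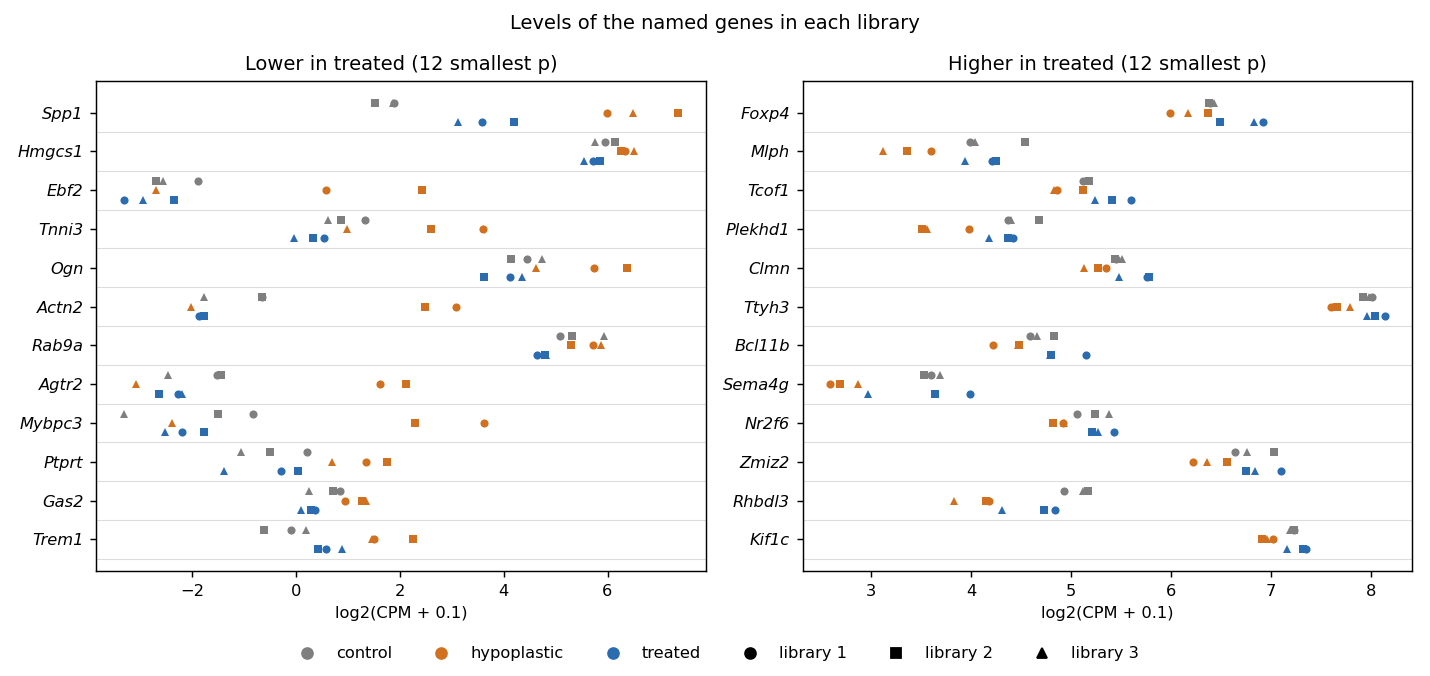
The 12 lower and 12 higher genes of smallest edgeR p are shown by library as log2(CPM + 0.1), with colour for the group and marker shape for the library number. Hypoplastic library 3 sits among the treated and control libraries for Ebf2 and Mybpc3 and below them for Actn2 and Agtr2. For Spp1, Hmgcs1 and the genes in the panel of higher genes all 3 untreated libraries are on one side of the treated ones.

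The other genes that DESeq2 called showed different patterns over the libraries. In Hmgcs1, Igf2, Ogn, Serpinf1, Tnni3, Tbx20, Gdf10 and Smyd1 all 3 untreated libraries were above all treated ones, though in Tbx20, Gdf10 and Smyd1 hypoplastic library 3 was above them by little. In Actn2, Ebf2, Agtr2, Ntrk3 and Fap only hypoplastic libraries 1 and 2 were high. Gene ID 103689982, which has no symbol, was high in hypoplastic libraries 2 and 3 instead, at 34.1 and 33 CPM, against 0.549 CPM in hypoplastic library 1 and 0.434 to 0.763 CPM in the treated lungs.

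Igf2, the imprinted fetal growth factor, was at 5203, 4670 and 4760 CPM in untreated, 2516, 3400 and 2567 CPM in treated and 3427, 2260 and 2809 CPM in control lungs. Each untreated lung was above every treated and every control lung, and the treated and control lungs overlapped. The log2 fold change of treated over untreated was -0.79 (SE 0.206, n = 3 and 3), with an edgeR adjusted p of 0.826 and a DESeq2 adjusted p of 0.0236. Leaving out 1 library at a time or changing the tool or scaling kept it between -0.94 and -0.71.

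Ogn, which encodes the small leucine-rich matrix proteoglycan osteoglycin, was at 53.3, 83.2 and 24.6 CPM in untreated and 17.3, 12.2 and 20.3 CPM in treated lungs. Hypoplastic library 3 was close to the treated lungs and to the controls at 17.5 to 26.5 CPM. Its log2 fold change was -1.70 (SE 0.383; DESeq2 adjusted p = 0.0051, edgeR adjusted p = 0.826). Serpinf1, the gene of pigment epithelium-derived factor, stood at 8.33, 18.2 and 5.45 CPM in untreated and at 2.77, 4.23 and 3.46 CPM in treated lungs, with hypoplastic library 2 the highest.

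Several stromal genes were high in hypoplastic libraries 1 and 2 and not in library 3. Ebf2, a transcription factor of mesenchymal and adipose precursors, was at 1.39, 5.29 and 0.0543 CPM in untreated and 0, 0.0957 and 0.0294 CPM in treated lungs. Agtr2, the type 2 angiotensin II receptor of fetal mesenchyme, was at 2.96, 4.26 and 0.0181 CPM in untreated and 0.105, 0.0598 and 0.117 CPM in treated lungs. In both genes the treated lungs stayed near the low values of hypoplastic library 3. Fap, a fibroblast surface protease, was at 1.31, 4.61 and 0.0362 CPM in untreated and 0.0478 to 0.132 CPM in treated lungs. Ntrk3, the neurotrophin-3 receptor, was at 3.66, 5.11 and 0.127 CPM in untreated and 0.215 to 0.316 CPM in treated lungs. In all 4 genes hypoplastic libraries 1 and 2 were above every treated lung, and hypoplastic library 3 was below at least 1 treated lung. Gdf10, a secreted factor related to the bone morphogenetic proteins, was at 8.81, 2.02 and 0.326 CPM in untreated and 0.184 to 0.308 CPM in treated lungs, which leaves hypoplastic library 3 just above them.

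The same split was counted over all lower genes. Among the 462 genes lower at an unadjusted p under 0.05, all 3 hypoplastic libraries were above all treated ones in 241 (52.2%), and only hypoplastic libraries 1 and 2 were in 151 (32.7%). The highest of the 3 untreated libraries was library 2 in 205 of these genes, library 1 in 183 and library 3 in 74. Among the 259 higher genes, all 3 treated libraries were above all untreated ones in 204 (78.8%). These genes were selected on the same 6 libraries, so the shares describe the values and test nothing.

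Genes of heart muscle had large fold differences. Of the 18 listed, 14 passed the low-count filter and 13 of those had a lower and 1 a higher log2 fold change in treated lungs, 12 of them at an unadjusted p under 0.05 (3.56% of all genes were lower at this p), with a median of -3.71 beside -0.01 (-4.25 to -2.86 with 1 library left out). The filter counted libraries of any group, so a gene low elsewhere could pass it largely through the untreated lungs where it was high. Counts and medians over the genes that passed can reflect this. No overlap of libraries was seen in 1 of the 14 (4.74% of all genes in this direction). Tnni3, cardiac troponin I, was that gene, at 12, 5.94 and 1.86 CPM in untreated and 1.34, 1.15 and 0.866 CPM in treated lungs (log2 fold change -2.56, SE 0.569; DESeq2 adjusted p = 0.00332). Mybpc3, cardiac myosin-binding protein C, was at 12.2, 4.80 and 0.0905 CPM in untreated and 0.0734 to 0.191 CPM in treated lungs, and Myl4, the atrial light chain of myosin, at 14.6, 8.98 and 0.0724 CPM in untreated and 0.338 to 0.434 CPM in treated lungs. Pln, phospholamban of the cardiac calcium store, was at 2.75, 2.84 and 0.181 CPM in untreated and 0.0587 to 0.287 CPM in treated lungs. In these 3 genes hypoplastic libraries 1 and 2 were far above the treated lungs and hypoplastic library 3 was within or below their range. Summed over the list, the level was 313, 161 and 27.1 CPM in untreated, 31.4 to 41.2 CPM in treated and 29.4 to 57.3 CPM in control lungs, and the part of this tissue's RNA in the differences was not tested.

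Actn2, Tbx20 and Smyd1, other genes of the muscle programme, followed the same libraries. Actn2, the alpha-actinin of the sarcomere Z-disc, was at 8.4, 5.5 and 0.145 CPM in untreated and 0.171 to 0.191 CPM in treated lungs. Tbx20, a transcription factor of the heart, was at 3.74, 1.29 and 0.0543 CPM in untreated and 0 to 0.0440 CPM in treated lungs, and Smyd1, a muscle methyltransferase, at 2.87, 0.898 and 0.109 CPM in untreated and 0.0239 to 0.103 CPM in treated lungs. Of the 14 skeletal muscle genes listed, 6 passed the filter and 5 of these were lower (median -0.79, and -1.23 without treated library 2). The limit on the filter given for the heart list holds here too. Summed over the skeletal list, the level was 17.1, 18.2 and 14.4 CPM in untreated and 10.7 to 15.7 CPM in treated lungs, with overlap. Without hypoplastic library 3, edgeR called 44 genes lower of 13168 (0.334%), 8 of them on the cardiac list (Actc1, Csrp3, Mybpc3, Myh6, Myh7, Myl4, Pln and Tnni3), and 11 of the 44 were among DESeq2's 15. DESeq2 itself then called 128 lower of 14287 (0.896%), in an alternative added after the data were seen. Without hypoplastic library 1, edgeR called 2 genes of 13087 (0.0153%), Spp1 and Gene ID 103689982.

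Cholesterol is made from acetyl-CoA through mevalonate by a chain of enzymes whose genes are switched on together by the factor SREBP2 when sterols run low, and INSIG1 holds that factor back. All 25 genes listed for synthesis and uptake passed the filter, and 21 were lower and 4 higher in treated lungs. Their log2 fold changes ran from -0.66 to 0.18, with the median at -0.19. Without treated library 3 the median was -0.088, without hypoplastic library 2 it was -0.32 and without treated library 2 it was -0.35. No overlap of libraries was seen in 8 lower members and 1 higher, beside 4.74% and 5.07% of all genes. At an unadjusted p under 0.05 in edgeR, 8 were lower and 0 higher, beside 3.56% and 2% of all genes. The list was drawn up with earlier results of these data known, so its counts are no independent sign of direction. The promoters of 3 members of small p are printed to show which motifs of sterol-regulated genes they share. RefSeq promoters (assembly GRCr8, 250 bases before to 50 after the start) were matched for 17 of the 25 genes. Both strands were searched for the core of the sterol regulatory element, CACNCCAC, and for the inverted CCAAT box ATTGG and capitals mark each match, which reads as the complement where it lies on the opposite strand. The motifs do not overlap in these promoters.

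Hmgcs1 chr2:53382054-53382353 (+): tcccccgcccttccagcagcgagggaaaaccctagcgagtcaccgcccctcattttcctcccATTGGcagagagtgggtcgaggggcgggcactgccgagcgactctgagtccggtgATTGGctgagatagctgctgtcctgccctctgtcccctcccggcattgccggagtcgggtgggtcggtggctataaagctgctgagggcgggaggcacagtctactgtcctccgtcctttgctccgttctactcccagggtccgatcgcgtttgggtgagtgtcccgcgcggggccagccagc

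Insig1 chr4:8057720-8058019 (-): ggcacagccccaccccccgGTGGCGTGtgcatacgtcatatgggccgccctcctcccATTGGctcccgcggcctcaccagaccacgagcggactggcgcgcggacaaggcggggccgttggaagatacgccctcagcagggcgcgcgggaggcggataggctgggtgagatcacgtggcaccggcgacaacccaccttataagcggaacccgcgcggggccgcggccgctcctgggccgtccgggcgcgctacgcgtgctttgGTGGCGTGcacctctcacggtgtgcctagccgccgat

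Msmo1 chr16:29746863-29747162 (+): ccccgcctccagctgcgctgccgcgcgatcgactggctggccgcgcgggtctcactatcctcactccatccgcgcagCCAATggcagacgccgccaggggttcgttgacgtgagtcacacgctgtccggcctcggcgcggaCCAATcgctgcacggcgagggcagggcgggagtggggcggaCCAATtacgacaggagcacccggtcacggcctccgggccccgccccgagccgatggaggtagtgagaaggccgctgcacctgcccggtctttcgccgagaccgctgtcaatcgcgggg

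The promoter of Hmgcs1 held 2 ATTGG boxes, that of Insig1 held 1 with 2 copies of the CACNCCAC core, and that of Msmo1 held 3 CCAAT boxes. That of Cyp51, the sterol demethylase, held neither motif in this window. ATTGG or its complement was in 14 of the 17 matched promoters of the list and in 10363 of 27457 RefSeq promoters of the same length (37.7%). The CACNCCAC core was in 3 of the 17 (Acat2, Ebp and Insig1) and in 1565 of 27457 (5.70%). These matches are letters in a window and say nothing of binding.

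Hmgcs1, the cytosolic HMG-CoA synthase at the head of the mevalonate pathway, was at 81.2, 76.3 and 90.5 CPM in untreated, 52.9, 57.5 and 46.7 CPM in treated and 61.8, 70.9 and 53.7 CPM in control lungs. The untreated lungs were above all treated and all control lungs. Its log2 fold change was -0.66 (SE 0.130, n = 3 and 3), with a DESeq2 adjusted p of 0.0146 and an edgeR adjusted p of 0.826, and it kept a value of -0.73 to -0.58 under every alternative. Insig1 was at 235, 230 and 244 CPM in untreated and 155, 199 and 176 CPM in treated lungs (log2 fold change -0.42, SE 0.117). Msmo1, which removes the methyl groups at carbon 4 of the sterol ring, was at 68.6, 68.4 and 60.9 CPM in untreated and 39.6, 57.9 and 36.4 CPM in treated lungs (log2 fold change -0.56, SE 0.174). In all 3 genes every untreated library was above every treated one.

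Other members of the list differed by less. Ebp, Sc5d and Lss had log2 fold changes between -0.03 and 0.03, and Srebf2, the gene of SREBP2 itself, was higher at 0.18 (SE 0.12) with libraries that did not overlap. These 4 genes and Cyp51 were picked out after their values were seen. Of 14 fatty acid synthesis genes tested, 11 were lower and 3 higher with a median of -0.12 (-0.17 to -0.10 with 1 library left out). Libraries did not overlap in 3 lower members and 1 higher (4.74% and 5.07% of all genes). The higher one was Fasn, the fatty acid synthase, at 482, 551 and 529 CPM in untreated and 718, 626 and 623 CPM in treated lungs (log2 fold change 0.33, SE 0.222), named after its values were seen. Elovl6, an elongase of saturated fatty acids, was at 5.6, 6.09 and 4.87 CPM in untreated and 3.83, 3.91 and 3.23 CPM in treated lungs (log2 fold change -0.59, SE 0.172). Acss2, which makes acetyl-CoA from acetate, had a log2 fold change of -0.38 (SE 0.159), and Scd, the stearoyl-CoA desaturase, was at 26.3, 52.6 and 15.3 CPM in untreated and 11.8 to 18.7 CPM in treated lungs, with overlap.

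**Figure D3:**
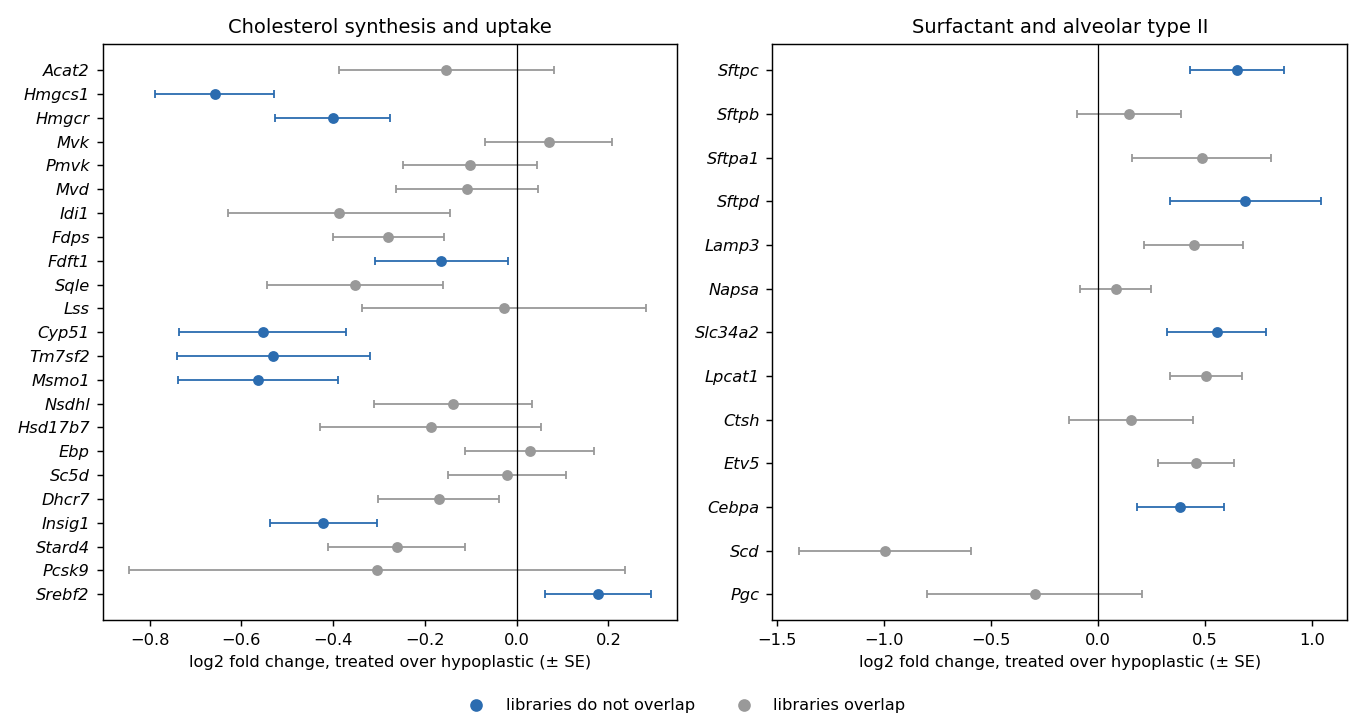
Log2 fold changes of treated over untreated hypoplastic lungs with their standard errors (n = 3 and 3) are shown for 23 of the 25 cholesterol genes and the 13 surfactant and alveolar type II genes, with blue for genes whose libraries do not overlap. Most cholesterol genes lie left of 0, by at most 0.66, and 11 of the 13 surfactant genes lie right of 0.

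Alveolar and epithelial patterning genes were mostly higher in treated lungs, while basal and neuroendocrine genes that passed the filter were mostly lower. Those lists and that of ciliated airway genes are given further on. Of 13 surfactant and alveolar type II genes tested, 11 were higher and 2 lower (median log2 fold change 0.45, and 0.30 without treated library 1), and 4 had libraries without overlap (5.07% of all genes had that in this direction). Sftpc, a surfactant protein characteristic of type II cells, was at 496, 292 and 438 CPM in untreated, 758, 595 and 567 CPM in treated and 645, 951 and 873 CPM in control lungs. Every treated lung was above every untreated one, with a log2 fold change of 0.65 (SE 0.219) and an edgeR adjusted p of 0.859. Sftpb, which spreads surfactant lipid, was at 817, 763 and 816 CPM in untreated and 923, 958 and 765 CPM in treated lungs, and overlapped (log2 fold change 0.14, SE 0.243). Lpcat1, which makes the main surfactant phospholipid, was at 114, 136 and 114 CPM in untreated and 217, 135 and 163 CPM in treated lungs.

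Of 12 alveolar type I genes tested, 10 were higher and 2 lower, with a median of 0.28 and no member without overlap (5.07% of all genes in the higher direction). With treated library 3 left out this median was 0.068, and with hypoplastic library 1 left out it was 0.12. Ager, a receptor of the type I cell's basal face, was at 23.1, 48.7 and 32.9 CPM in untreated and 42.2, 34.3 and 71.8 CPM in treated lungs (log2 fold change 0.50, SE 0.386), and Emp2, a membrane protein of these cells, had 0.50 (SE 0.278). Of 26 genes of branching and epithelial patterning, 17 were higher and 9 lower, with a median of 0.15 (0.10 without hypoplastic library 1), and 5 were without overlap, all higher (5.07% of all genes). Nkx2-1 was at 264, 334 and 300 CPM in untreated and 441, 352 and 394 CPM in treated lungs, so that the groups did not overlap (log2 fold change 0.40, SE 0.136; edgeR adjusted p = 0.859). Etv5, a factor induced by FGF at the branching tips, had 0.46 (SE 0.177) with overlap. Foxp2 and Foxp1, forkhead repressors of lung epithelium, had 0.32 (SE 0.128) and 0.24 (SE 0.101), both without overlap. Fgf10, the mesenchymal ligand of branching, was at 5.47, 4.62 and 6.23 CPM in untreated and 6.02, 5.24 and 4.88 CPM in treated lungs, and Sox9, the factor of the distal tip, had a log2 fold change of 0.18 (SE 0.224).

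Among single genes higher in treated lungs, the smallest p belonged to another forkhead gene of lung epithelium, Foxp4. It was at 63.5, 82.7 and 71.9 CPM in untreated, 121, 90.1 and 114 CPM in treated and 84.0, 83.4 and 86.3 CPM in control lungs. The treated lungs were above all other lungs, with a log2 fold change over untreated lungs of 0.58 (SE 0.133, n = 3 and 3; edgeR adjusted p = 0.826, DESeq2 adjusted p = 0.11). Mlph, which ties secretory granules to myosin, was at 12, 10.2 and 8.56 CPM in untreated and 18.3, 18.9 and 15.3 CPM in treated lungs (log2 fold change 0.77, SE 0.190). Tcof1, a nucleolar factor of ribosomal RNA synthesis, was at 28.9, 34.6 and 28.3 CPM in untreated and 48.3, 42.5 and 37.7 CPM in treated lungs. Sema4g, a semaphorin guidance protein, was at 5.93, 6.37 and 7.22 CPM in untreated and 15.8, 12.3 and 7.74 CPM in treated lungs (log2 fold change 0.88, SE 0.234). In Plekhd1, Clmn, Ttyh3, the zinc finger factor Bcl11b, the orphan nuclear receptor Nr2f6, the coactivator Zmiz2, the rhomboid protein Rhbdl3 and the kinesin Kif1c the 3 treated libraries were likewise above all untreated ones, at log2 fold changes of 0.31 to 0.63. None of these genes was called by edgeR or by DESeq2. These genes were picked by their p on the same libraries, so the separation describes the values and tests nothing.

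In the other lower genes of small p, all untreated libraries were above all treated ones. They were picked by their p on these same libraries, so this describes the values and tests nothing. Rab9a, a GTPase of transport from endosomes to the Golgi, was at 52.5, 39.4 and 58.4 CPM in untreated and 24.8, 27.7 and 27.9 CPM in treated lungs, and all treated values lay below all control values too (33.8 to 60.7 CPM). Gas2, an actin-binding protein of growth arrest, was at 1.81, 2.30 and 2.44 CPM in untreated and 1.19, 1.12 and 0.969 CPM in treated lungs. Trem1, a receptor that amplifies inflammation in myeloid cells, was at 2.75, 4.65 and 2.64 CPM in untreated and 1.38, 1.23 and 1.75 CPM in treated lungs. The receptor phosphatase gene Ptprt was at 2.42, 3.27 and 1.52 CPM in untreated and 0.711, 0.921 and 0.279 CPM in treated lungs. None of the 4 was called by either tool.

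Genes of matrix and growth factor signalling gave small medians. Of 27 TGF-beta and BMP genes tested, 12 were higher and 15 lower (median log2 fold change -0.05, and 0.031 without hypoplastic library 2). Tgfb3, a ligand, was at 14.4, 18.2 and 13.2 CPM in untreated and 9.27, 8.47 and 12.5 CPM in treated lungs (log2 fold change -0.60, SE 0.206), and Id3, a target of BMP signals, was at 79.7, 105 and 90.5 CPM in untreated and 72.2, 60.9 and 65.8 CPM in treated lungs (-0.47, SE 0.155). Bmp2, also a ligand, had -0.78 (SE 0.315), and these 3 were the members whose libraries did not overlap (4.74% of all genes in this direction). Tgfb1 had -0.16 (SE 0.322) and Smad3, the signal transducer, 0.06 (SE 0.174), and the sign of both turned when 1 library was left out. Of 10 collagen genes tested, 8 were lower and 2 higher, with a median of -0.34 (-0.089 without hypoplastic library 2, -0.53 without hypoplastic library 1). Col1a1 was at 1416, 5816 and 1396 CPM in untreated and 1616, 954 and 1359 CPM in treated lungs, so the difference lay in hypoplastic library 2, and Col14a1 was the member without overlap at -0.55 (SE 0.227). Of 14 elastic fibre genes, 8 were lower and 6 higher with a median of -0.10 (-0.19 to -0.055 with 1 library left out), where Fbn1, the microfibril protein, had -0.37 (SE 0.198) without overlap and Mfap5 had 18.3 CPM in hypoplastic library 2 alone against 0.815 to 2.58 CPM in the other 5 libraries.

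Inflammatory and antiviral genes were far higher in 1 untreated lung than in the others. All 18 interferon response genes tested had a lower mean in treated lungs, at a median of -1.17 on the log2 scale, and so did 20 of 21 cytokine, chemokine and NF-kB genes, at a median of -1.28. Summed over the lists, hypoplastic library 2 held 980 CPM of interferon genes, against 265 and 311 CPM in the other untreated lungs and 252, 263 and 462 CPM in the treated ones. For the cytokine list these sums were 384, 1177 and 336 CPM in untreated and 369, 422 and 354 CPM in treated lungs. Without hypoplastic library 2 the median of the interferon list was 0.40 and that of the cytokine list 0.46. Without treated library 3 the interferon median was -2.60. Ifit3, an interferon-induced protein, was at 0.458, 85.5 and 2.77 CPM in untreated and 0.750, 0.837 and 7.36 CPM in treated lungs, and Cxcl10, a chemokine induced by interferon, at 3.11, 98.9 and 2.5 CPM in untreated and 1.05, 1.69 and 4.66 CPM in treated lungs. Of the 21 cytokine list genes only Tnf had libraries that did not overlap, which is near the share of all genes in this direction (4.74%). It was at 1.65, 2.99 and 2.10 CPM in untreated and 0.856, 1.63 and 1.04 CPM in treated lungs (log2 fold change -0.92, SE 0.333).

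Among immune cell lists, 16 of 17 macrophage genes tested were lower with a median of -0.33, which became 0.16 without hypoplastic library 2 and -0.97 without treated library 3. Of 17 neutrophil granule genes, 14 were lower and 3 higher, with a median of -0.74, and no member was without overlap (4.74% of all genes were, in the lower direction). This median was -0.28 without hypoplastic library 2, -0.40 without treated library 2 and -1.16 without treated library 3. Lcn2, a neutrophil gelatinase-associated protein, was at 33.1, 131 and 21.3 CPM in untreated and 20.2 to 26.4 CPM in treated lungs. MHC class II genes went the other way, with 7 of 8 higher, a median of 0.58 (0.39 to 0.74 with 1 library left out) and 3 members without overlap (5.07% of all genes). RT1-Bb was at 3.89, 2.37 and 2.19 CPM in untreated and 4.25, 4.22 and 8.13 CPM in treated lungs (log2 fold change 0.97, SE 0.415), and RT1-Db1 was also without overlap at 0.72 (SE 0.336). How any reads shared among similar class II genes were counted is not given in the sources used here, so the values of these genes are uncertain.

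**Figure D4:**
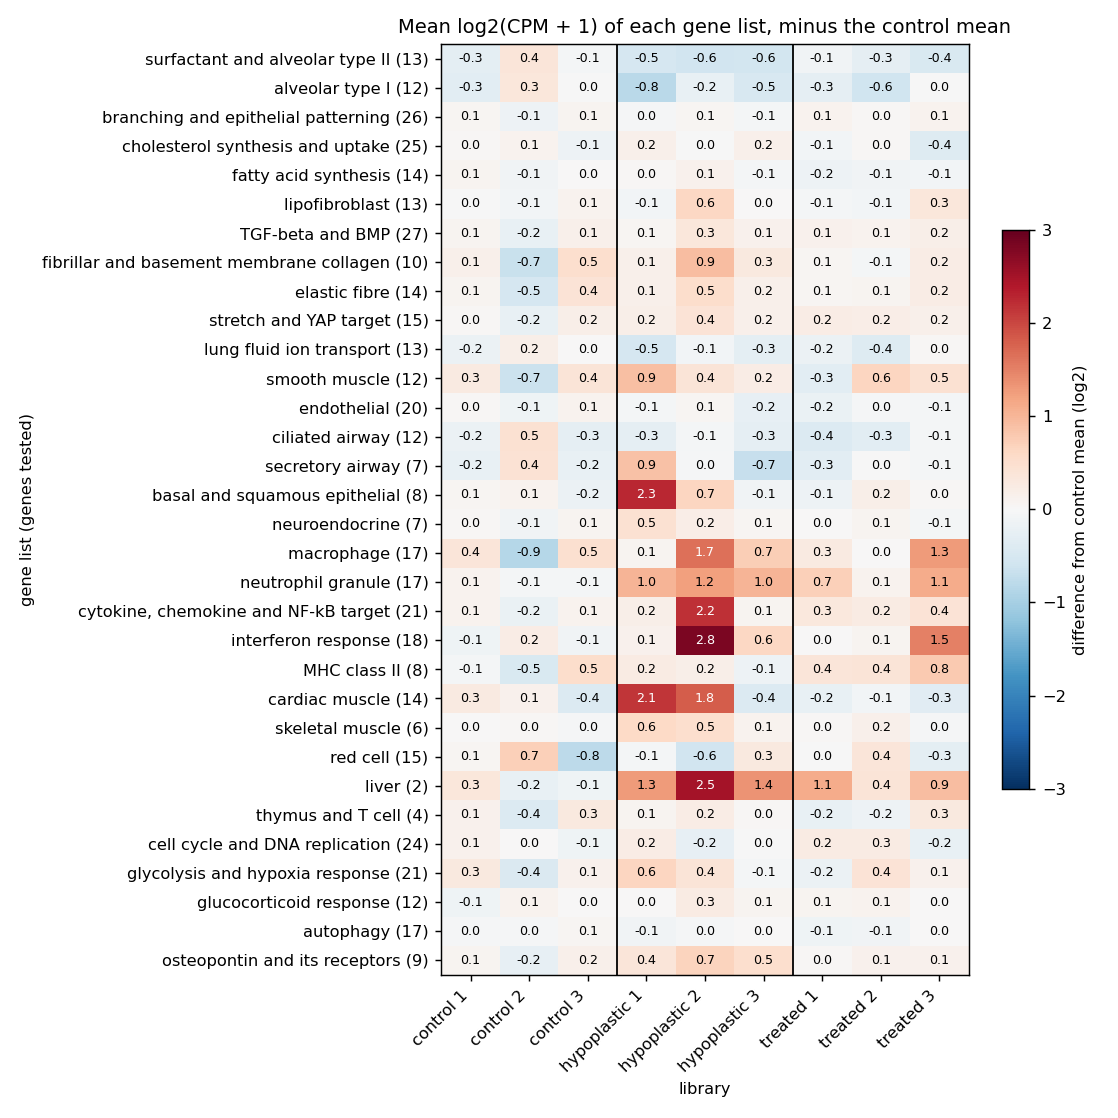
Each row is 1 of 32 gene lists and each column 1 library, and the number and colour give the mean log2(CPM + 1) of the list minus the mean of the 3 control libraries. Cardiac muscle genes stand out in hypoplastic libraries 1 and 2, interferon and cytokine genes in hypoplastic library 2, and basal epithelial genes in hypoplastic library 1, while interferon genes are also high in treated library 3.

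The remaining lists hold markers of other cell types and processes. Genes of basal and squamous epithelium had a median of -2.07 (-0.53 without hypoplastic library 1) over 8 tested of 11 measured, all lower. As in the heart list, a gene low elsewhere could pass the filter largely through the untreated lungs where it was high. Summed over the basal list, the level was 219, 96.6 and 71.2 CPM in untreated and 53.2 to 87.6 CPM in treated lungs. Krt5, a keratin of basal cells, was at 14.9, 0.196 and 0 CPM in untreated and 0.0440 to 0.179 CPM in treated lungs, so hypoplastic library 1 alone was high. Krt17 was at 47.4, 3.95 and 1.74 CPM in untreated and 1.08 to 2.91 CPM in treated lungs. Ngfr, the low-affinity neurotrophin receptor, was the member without overlap (4.74% of all genes in this direction). It was at 1.36, 3.09 and 0.742 CPM in untreated and 0.323 to 0.622 CPM in treated lungs. Of 11 neuroendocrine genes listed, 7 passed the filter, with the same limit, and 5 of these were lower. Their median was -0.79 (-1.28 to -0.50 with 1 library left out). Summed over the neuroendocrine list, the level was 74.5, 43.8 and 50.3 CPM in untreated and 42.3 to 64.5 CPM in treated lungs, with overlap. Of 12 ciliated airway genes 7 were lower (51.9% of all genes were), with a median of -0.02 (-0.25 to 0.023) beside -0.01 for all genes. Smooth muscle genes were lower in 9 of 12 (median -0.21), endothelial genes in 13 of 20 (median -0.03) and lipofibroblast genes in 8 of 13 (median -0.14). The smooth muscle median turned to 0.066 without treated library 1, and leaving out hypoplastic library 1 gave 0.038. The endothelial median turned to 0.072 without treated library 1 and 0.013 without hypoplastic library 2, and the lipofibroblast median to 0.14 without hypoplastic library 2. Red cell genes were higher in 12 of 15 (median 0.16), with the median at -0.089 without hypoplastic library 2 and -0.060 without treated library 2. Secretory airway genes were higher in 4 of 7 (median 0.07, and -0.29 without hypoplastic library 3 and -0.19 without treated library 2). Genes of thymus and T cells were lower in 3 of 4 (median -0.33, and 0.051 without hypoplastic library 1). Of 12 liver genes only Fgg and Tf, which encodes transferrin, passed the filter, and albumin and alpha-fetoprotein were at 0.0305 CPM or below in all 6 libraries. Summed over the liver list, the level was 87 to 103 CPM in untreated and 32.3 to 64.7 CPM in treated lungs.

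Cell cycle and DNA replication genes were higher in 20 of 24 (48.1% of all genes were), at a median of 0.10. No member was without overlap (5.07% of all genes in this direction). The median turned to -0.017 without hypoplastic library 2 and was 0.26 without treated library 3. Mki67, a marker of cycling cells, was at 255, 250 and 224 CPM in untreated and 387, 322 and 240 CPM in treated lungs (log2 fold change 0.38, SE 0.178). Glycolysis and hypoxia genes were lower in 19 of 21, at a median of -0.19, which turned to 0.054 without hypoplastic library 1 and was -0.31 without hypoplastic library 3. Their member of smallest p, Car9, a carbonic anhydrase induced by low oxygen, was at 10.6, 9.98 and 5.43 CPM in untreated and 5.29, 4.46 and 7.17 CPM in treated lungs, with overlap. Of the stretch and YAP target genes 6 were higher and 9 lower (median -0.06), of the lung fluid ion transport genes 10 were higher and 3 lower (median 0.08), of the glucocorticoid response genes 5 were higher and 7 lower (median -0.06), and of the autophagy genes 8 were higher and 9 lower (median -0.05). The medians of the stretch and glucocorticoid lists turned to 0.068 and 0.060 without hypoplastic library 2 and that of the autophagy list to 0.032 without treated library 1, while that of ion transport ran from 0.068 to 0.13. Over all 32 lists, 446 of 513 genes listed passed the filter, and edgeR called 0 of them.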

How the data were processed

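Ribosome-depleted total RNA of 9 frozen lungs was sequenced, with extraction on 1 day for all, per the labels' protocols. The authors deposited 1 table of estimated counts per NCBI Gene ID, not normalized between libraries; 19.5% of its nonzero values were whole. The submitters' processing notes name build rn7 and DESeq2; aligner and counter are unknown from the sources used here. The tests had been planned for counts, so values were rounded to whole numbers. Symbols and promoters came from RefSeq tables of GRCr8 (17314 IDs, 99.1%, matched).

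All 9 libraries entered 1 fit of edgeR 4.0.16 (R 4.3.3; TMM, filterByExpr, glmQLFit, glmQLFTest), with 6 residual degrees of freedom and Benjamini-Hochberg adjustment over 12966 genes. Each SE was the absolute log2 fold change divided by the square root of that test's F statistic, so its spread came from all 9 libraries. Libraries of a group differed by more than sampling noise (lowest chi-square per degree of freedom 132.1). DESeq2 1.42.0, limma 3.58.1 (voom), other scalings, filters and covariates and leaving out each library were alternatives. The edgeR script was tested on simulated data. Genes named were the 12 of smallest p in each direction with a mean of at least 1 CPM, DESeq2's calls, up to 4 of each list described, and 9 set genes. Members and lists were chosen with earlier results of these data known. Some genes are not reported here.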

Additional observations from a re-analysis of the deposited data

How the results depend on the processing

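With all 6 libraries kept, edgeR called 0 genes under each scaling, filter, covariate and block tried and in a fit of the 6 alone, and limma voom called 0. DESeq2 called 15 genes, and leaving out 1 library gave 0 to 44 edgeR calls and 6 to 131 DESeq2 calls, the last set chosen after seeing the data. Genes at an unadjusted p under 0.05 numbered 375 to 973 and genes without overlap 1736 to 3337 with 1 library left out (375 without treated library 1), against 721 and 1272; fewer libraries leave fewer values to overlap. Calls were most under the loss of hypoplastic library 3 (44 and 131) and, in DESeq2, fewest under that of treated library 1 (6). With a sex covariate, edgeR called 0 genes and 587 were at an unadjusted p under 0.05 (190 higher, 397 lower). With a replicate block, edgeR called 0 genes and 582 were at an unadjusted p under 0.05 (218 higher, 364 lower). The deviations of same-numbered libraries from their group means correlated at r = 0.198, -0.391 and 0.0206. With 3 libraries per group these values cannot decide whether the numbers mark pairs, and the labels do not say. Of 99 genes chosen by the naming rule, 91 kept their direction under every alternative that tested them, which for Tbx20 and Ebf2 was 17 of 19. The other 8 turned with 1 library left out: Krt5 (-6.16 to 0.090), Ifit2 (-2.95 to 0.21), Ifit3 (-5.21 to 0.90), Cxcl2 (-2.21 to 0.48), Oasl (-4.56 to 0.83), Tgfb1 (-0.33 to 0.081), Smad3 (-0.088 to 0.15) and Fgf10 (-0.12 to 0.093). Of 32 list medians, 16 turned sign and 29 turned or moved by over 1.5 times with 1 library left out; 14 moved by over 1 SD under some alternative, 8 of them without hypoplastic library 2. The cause was not tested.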
